A study of Mus musculus with 5 samples.

Results

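The genes of the unfolded protein response and the endoplasmic reticulum (ER) chaperones were examined as a set of 34 genes, given as a list of names that was drawn up with earlier results of these data known. They were found by gene name on the array, with Manf under its older name Armet: 32 of the 34 matched, among 28090 gene names in all, and they carried 58 probes. Dnajc3 and Ppp1r15a stand on the array under older names (Dnajc3a and Myd116); they were found through their RefSeq accessions, and their values are given beside the 32 but enter no count. Each gene is given by its brightest probe. All 32 genes were well above background on all 5 arrays, as were 12965 gene names in all.

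The study put liver RNA of male C57BL/6J mice aged 25 weeks on 1-colour Agilent whole-genome arrays, with the RNA of 5 mice pooled on 1 array for each of 5 groups. The control mice were untreated. All 4 other groups first spent 16 weeks on HFHFr food, rich in fat and fructose. HFHFr-N mice then ate normal food for 4 weeks and were insulin resistant, and HFHFr-NA mice ate normal food with all-trans retinoic acid, the active form of vitamin A, for those 4 weeks and had recovered from insulin resistance. HFHFr-F mice stayed on the diet for 20 weeks in all and were severely insulin resistant. HFHFr-FA mice ate the diet with all-trans retinoic acid for the last 4 weeks and were not insulin resistant, with slight liver steatosis. With 1 pool per group the spread between mice was not measured, so no test could be made: every difference is a difference between pools, and a gene is counted as higher or lower where the pools differed at least 2-fold (a log2 ratio of at least 1). The HFHFr-FA array sat alone on a second slide with its own scan, so for each of its differences group and slide cannot be told apart.

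The ER folds the proteins that a cell secretes or sends to its membranes, and hepatocytes, which secrete most plasma proteins, carry much of it. When unfolded proteins build up there, the sensors IRE1 alpha (gene Ern1), PERK (Eif2ak3) and ATF6 signal to the nucleus: IRE1 alpha splices the Xbp1 messenger RNA, PERK slows translation and favours ATF4, and ATF6 is cut to release a transcription factor. Together they switch on chaperones, disulfide-forming enzymes and the machinery that returns misfolded proteins to the cytosol for degradation (ERAD). Arrays of this kind measure the amount of RNA and see neither Xbp1 splicing nor phosphorylation of the sensors.

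The DNA element through which ATF6 and XBP1 act on many of these genes, the ER stress response element (ERSE), is shown because 10 of these genes carry it, among them 4 of the 7 that were at least 2-fold higher in the HFHFr-FA than in the HFHFr-F pool; of the other 3, Sdf2l1 had no match, and Manf and Hyou1 were not in the promoter table. RefSeq promoter entries (mouse build GRCm38.p6) were found for 29 of the 34 genes, and the 250 bases before each start were searched on both strands. ERSE, written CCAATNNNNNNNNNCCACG with N for any base, was in 10 of the 29 genes and in 37 of all 32851 promoter windows (0.113%). The shorter ERSE-II, ATTGGNCCACG, was in Herpud1 alone and in 10 of all windows (0.0304%). The XBP1 element TGACGTGG (UPRE) was in none of the members' windows and in 0.563% of all windows, and the ATF4 element TGATGNAAT (CARE) was likewise in none and in 0.816% of all. Each of these is a match of letters and not a measured binding site. The matched elements, turned so that all read in the same direction and with the fixed letters in capitals, were these:
Hspa5: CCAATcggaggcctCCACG
Creld2: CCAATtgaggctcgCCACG
Syvn1: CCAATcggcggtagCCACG
Derl3: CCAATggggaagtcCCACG
Ero1lb: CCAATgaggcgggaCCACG
Dnajc3: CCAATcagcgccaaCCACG
Hsp90b1, far: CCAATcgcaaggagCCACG
Hsp90b1, near: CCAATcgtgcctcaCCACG
Calr: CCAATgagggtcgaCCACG
Canx: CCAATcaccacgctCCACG
Pdia6: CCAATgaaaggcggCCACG
Herpud1, ERSE-II: ATTGGgCCACG

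The promoters of those 4 genes are printed in full, as they were picked for having both an ERSE match and a 2-fold difference. Whether the element bears on the difference was not tested. Each runs 5′ to 3′ along the gene's own strand and ends at the base before the start, and the capitals mark the whole ERSE. They lie at chr2:34771840-34772089 (Hspa5), chr15:88819396-88819645 (Creld2), chr19:6046326-6046575 (Syvn1) and chr10:75893148-75893397 (Derl3), all on the plus strand.
Hspa5: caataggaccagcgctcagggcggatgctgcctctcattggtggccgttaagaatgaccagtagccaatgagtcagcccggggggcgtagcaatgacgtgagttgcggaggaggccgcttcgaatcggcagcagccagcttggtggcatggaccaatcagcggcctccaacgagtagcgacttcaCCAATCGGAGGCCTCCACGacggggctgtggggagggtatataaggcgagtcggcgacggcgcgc
Creld2: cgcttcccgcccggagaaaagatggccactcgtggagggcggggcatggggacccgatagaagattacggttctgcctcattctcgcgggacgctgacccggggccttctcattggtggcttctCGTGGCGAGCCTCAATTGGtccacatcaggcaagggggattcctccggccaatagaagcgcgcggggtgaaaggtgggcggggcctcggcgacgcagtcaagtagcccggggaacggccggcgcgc
Syvn1: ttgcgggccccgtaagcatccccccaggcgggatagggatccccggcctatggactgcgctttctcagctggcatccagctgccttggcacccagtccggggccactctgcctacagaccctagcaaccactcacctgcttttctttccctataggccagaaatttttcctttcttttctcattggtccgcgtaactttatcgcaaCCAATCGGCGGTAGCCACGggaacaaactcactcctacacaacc
Derl3: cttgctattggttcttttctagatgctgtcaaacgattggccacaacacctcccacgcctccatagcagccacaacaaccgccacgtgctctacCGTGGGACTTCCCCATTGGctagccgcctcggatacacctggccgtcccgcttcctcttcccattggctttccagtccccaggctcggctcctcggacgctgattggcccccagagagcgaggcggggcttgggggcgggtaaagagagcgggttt
In Hspa5 the element lies at -65 to -47, counted in bases from the start, and in Syvn1 at -44 to -26, both on the gene's strand. In Creld2 it lies at -126 to -108 and in Derl3 at -156 to -138, both on the opposite strand.

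Levels are the background-corrected signal of a gene's probe as a multiple of the 75th percentile of the array's non-control spots. They compare pools for 1 gene and say nothing about 1 gene against another. Spots of the same probe on 1 array had an SD of 0.0704 to 0.0860 on the log2 scale, which makes 0.10 to 0.12 for a ratio of 2 arrays; this is spotting error and holds none of the difference between mice. Most of the members' 2-fold differences were between HFHFr-FA and HFHFr-F, the pools on the HFHFr diet with and without retinoic acid: 7 of 32 genes (21.9%) were at least 2-fold higher with retinoic acid and none was lower. Of all 14723 genes in that comparison 2.77% were higher and 2.83% lower, so that 49.5% of the genes past 2-fold were higher; this share was 35.7% with median centring and 39.6% with cyclic loess. Members above 0 numbered 27 of 32, and the members' median log2 ratio was 0.34, against 0.03 over all genes. The 7 genes were Creld2, Sdf2l1, Derl3, Manf, Syvn1, Hyou1 and Hspa5; Hspa5 was at 0.94 with median centring, and Hyou1 at 0.87 with the mean of all its probes, which takes in a probe that was above background on no array.

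**Figure D1:**
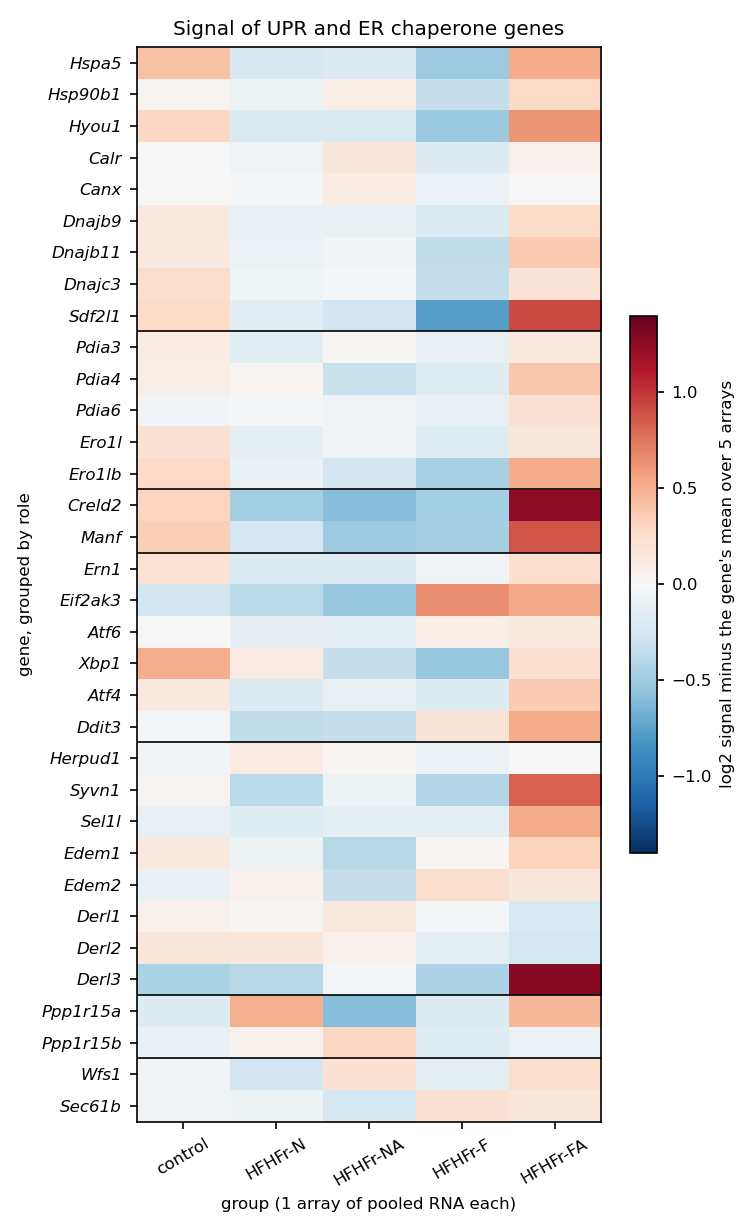
Level of each gene of the set on each of the 5 arrays, as the log2 difference from that gene's mean over the arrays; rows are genes in the order of their roles and columns are the pools, with control first and HFHFr-FA last. The HFHFr-FA column holds the highest level of 21 of the 32 counted genes and the HFHFr-F column the lowest level of 15.

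Among the chaperones, Hspa5 encodes BiP, the main ER chaperone of the HSP70 family, which also holds the 3 sensors inactive when bound to them. Its level was 163 in control, 85.9 in HFHFr-F, 176 in HFHFr-FA, 105 in HFHFr-N and 106 in HFHFr-NA. The control and HFHFr-FA pools were thus close to each other and above the other 3, with HFHFr-F lowest. The log2 ratio was -0.93 for HFHFr-F against control and 1.04 for HFHFr-FA against HFHFr-F. The probe for Hspa5 lies at chr2:34631630-34631689 on the mm9 build of the array's files; the exon it covers was not determined, here or for any other probe.

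Sdf2l1, a partner of BiP that helps keep unfolded proteins from clumping, had the same order at the ends. Its level was 3.81 in control, 1.85 in HFHFr-F, 5.99 in HFHFr-FA, 2.85 in HFHFr-N and 2.62 in HFHFr-NA. It was lower in HFHFr-F than in control by the 2-fold limit (log2 ratio -1.04) and higher in HFHFr-FA than in HFHFr-F (1.70). Its probe lies at chr16:17130426-17130485 (mm9). Hyou1, the large HSP70-like chaperone that exchanges the nucleotide of BiP, was at 7.0 in control, 4.0 in HFHFr-F, 8.83 in HFHFr-FA, 5.02 in HFHFr-N and 5.0 in HFHFr-NA. HFHFr-F was again lowest and HFHFr-FA highest, with log2 ratios of -0.81 for HFHFr-F against control and 1.14 for HFHFr-FA against HFHFr-F (probe at chr9:44200367-44200426, mm9).

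The other chaperones differed less. Hsp90b1 (GRP94, the HSP90 of the ER) was at 143 in control, 111 in HFHFr-F, 168 in HFHFr-FA, 132 in HFHFr-N and 148 in HFHFr-NA. Dnajb11, a J-domain partner of BiP, was at 27, 19.5, 31.7, 23.5 and 24.1 in the same order. For both genes the HFHFr-FA pool was highest and the HFHFr-F pool lowest, with log2 ratios between them of 0.60 and 0.70. Dnajb9, another J-domain partner and a repressor of IRE1 alpha, ranged from 7.09 in HFHFr-F to 9.69 in HFHFr-FA. The lectin chaperones Calr and Canx, which hold sugar-tagged proteins until they fold, had log2 ratios of 0.24 and 0.09 for HFHFr-FA against HFHFr-F, the second within the spotting error. Dnajc3, a co-chaperone also known as p58IPK and outside the counts, was at 22.8 in control, 15.3 in HFHFr-F and 21.8 in HFHFr-FA. All 8 counted chaperones were below 0 in HFHFr-F against control (median log2 ratio -0.42, 1 at least 2-fold lower) and above 0 in HFHFr-FA against HFHFr-F (median 0.65, 3 at least 2-fold higher). All 8 were lowest on the HFHFr-F array. The direction for Canx turned under other scalings, to 0.04 for HFHFr-F against control with cyclic loess and to -0.01 for HFHFr-FA against HFHFr-F with median centring.

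Creld2 and Manf encode small proteins that are made and partly secreted under ER stress; MANF also binds BiP, and CRELD2 has disulfide isomerase activity. Creld2 was at 52.3 in control, 30.5 in HFHFr-F, 101 in HFHFr-FA, 30.5 in HFHFr-N and 28 in HFHFr-NA. The HFHFr-FA pool stood above all others and the remaining HFHFr pools lay close together below control. The log2 ratio of HFHFr-FA to HFHFr-F was 1.73, the highest in the set (probe at chr15:88656997-88657056, mm9). Manf was at 17.3 in control, 10 in HFHFr-F, 25.3 in HFHFr-FA, 11.6 in HFHFr-N and 9.70 in HFHFr-NA, again highest in HFHFr-FA with control next. Its log2 ratio was -0.79 for HFHFr-F against control and 1.33 for HFHFr-FA against HFHFr-F (probe at chr9:106791278-106791337, mm9).

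Among the enzymes that form and shuffle disulfide bonds, Ero1lb, which passes oxidising power to protein disulfide isomerase, was at 5.59 in control, 3.37 in HFHFr-F, 6.63 in HFHFr-FA, 4.34 in HFHFr-N and 3.88 in HFHFr-NA. HFHFr-FA was highest and HFHFr-F lowest, with a log2 ratio of 0.97, just under the 2-fold limit. Its other measured probe gave 0.32. Ero1l, the more widely expressed oxidase, ranged only from 0.479 in HFHFr-F to 0.618 in control. The isomerases Pdia3, Pdia4 and Pdia6 had log2 ratios of 0.25, 0.55 and 0.31 for HFHFr-FA against HFHFr-F. By the brightest probe none of the 5 reached 2-fold in any of the 6 comparisons. The other Pdia6 probes, all dimmer, gave 0.08, 0.08 and -0.29 for HFHFr-FA against HFHFr-F. One of them gave -1.04 for HFHFr-FA against control and another -1.02 for HFHFr-N against control.

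The sensors and transcription factors differed in direction. Xbp1, the transcription factor that IRE1 alpha activates by splicing, was at 7.57 in control, 3.68 in HFHFr-F, 6.23 in HFHFr-FA, 5.77 in HFHFr-N and 4.24 in HFHFr-NA. Control was highest and HFHFr-F lowest, with log2 ratios of -1.04 for HFHFr-F against control and 0.76 for HFHFr-FA against HFHFr-F (probe at chr11:5424970-5425029, mm9). Eif2ak3 (PERK), by contrast, was high in both pools still on the HFHFr diet. Its level was 0.964 in control, 1.79 in HFHFr-F, 1.66 in HFHFr-FA, 0.884 in HFHFr-N and 0.797 in HFHFr-NA, and it was the only member at least 2-fold lower in HFHFr-N than in HFHFr-F (log2 ratio -1.02; probe at chr6:70854787-70854846, mm9). Atf4, the factor that PERK signalling favours, was at 3.42 in control, at 2.75 and 2.93 on normal food without and with retinoic acid, and at 2.77 and 4.03 on the HFHFr diet without and with it. Ddit3 (CHOP, linked to cell death under lasting stress) was at 0.833, 0.667, 0.677, 0.956 and 1.21 in the same order. Both were highest in HFHFr-FA, with log2 ratios to HFHFr-F of 0.54 and 0.34. Atf6 and Ern1 differed by 0.04 and 0.26 between the same pools.

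In the ERAD machinery, Derl3 and Syvn1 differed most. Derl3 encodes a member of the derlin family of the channel complex, best known from secretory tissues. It was at 0.732 in control, 0.740 in HFHFr-F, 2.40 in HFHFr-FA, 0.762 in HFHFr-N and 0.988 in HFHFr-NA (probe at chr10:75358503-75358562, mm9). It stood apart in the HFHFr-FA pool alone, with a log2 ratio of 1.70 to HFHFr-F and 0.02 for HFHFr-F against control. Syvn1 (HRD1), the ubiquitin ligase of the complex, was at 44.6 in control, 32.6 in HFHFr-F, 77.1 in HFHFr-FA, 33.4 in HFHFr-N and 41.2 in HFHFr-NA. HFHFr-FA was again highest, with a log2 ratio to HFHFr-F of 1.24 (probe at chr19:6053568-6053627, mm9). Sel1l, the partner that holds Syvn1 in place, was at 1.79 in HFHFr-F and 2.79 in HFHFr-FA, a log2 ratio of 0.64. A second Sel1l probe gave -0.00, so the difference for this gene depends on the probe.

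The rest of ERAD was nearly level. Herpud1, which assembles the complex and carries the ERSE-II shown above, was at 95.1 in control, 92.1 in HFHFr-F and 97.1 in HFHFr-FA. Edem1, which trims the sugars of doomed proteins, had a log2 ratio of 0.27 for HFHFr-FA against HFHFr-F and Edem2 of -0.06. The derlins Derl1 and Derl2 had -0.19 and -0.10, with levels of 19.7 and 50.4 in HFHFr-FA, the lowest on any array for these probes. A second Derl2 probe gave 0.40, and the other Derl1 probes gave 0.52, 0.08 and 0.06. The signs of both genes thus rest on the brightest probe. Of the 8 ERAD genes 5 were above 0 in HFHFr-FA against HFHFr-F and the median was 0.17. Among the remaining genes, Ppp1r15b, which helps to restart translation, had a log2 ratio of 0.09 and Wfs1, an ER membrane protein, of 0.34. Sec61b, a subunit of the channel through which proteins enter the ER, had -0.05. Ppp1r15a (GADD34), the inducible relative of Ppp1r15b and outside the counts, was at 0.439 in control, 0.436 in HFHFr-F, 0.689 in HFHFr-FA, 0.706 in HFHFr-N and 0.331 in HFHFr-NA.

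**Figure D2:**
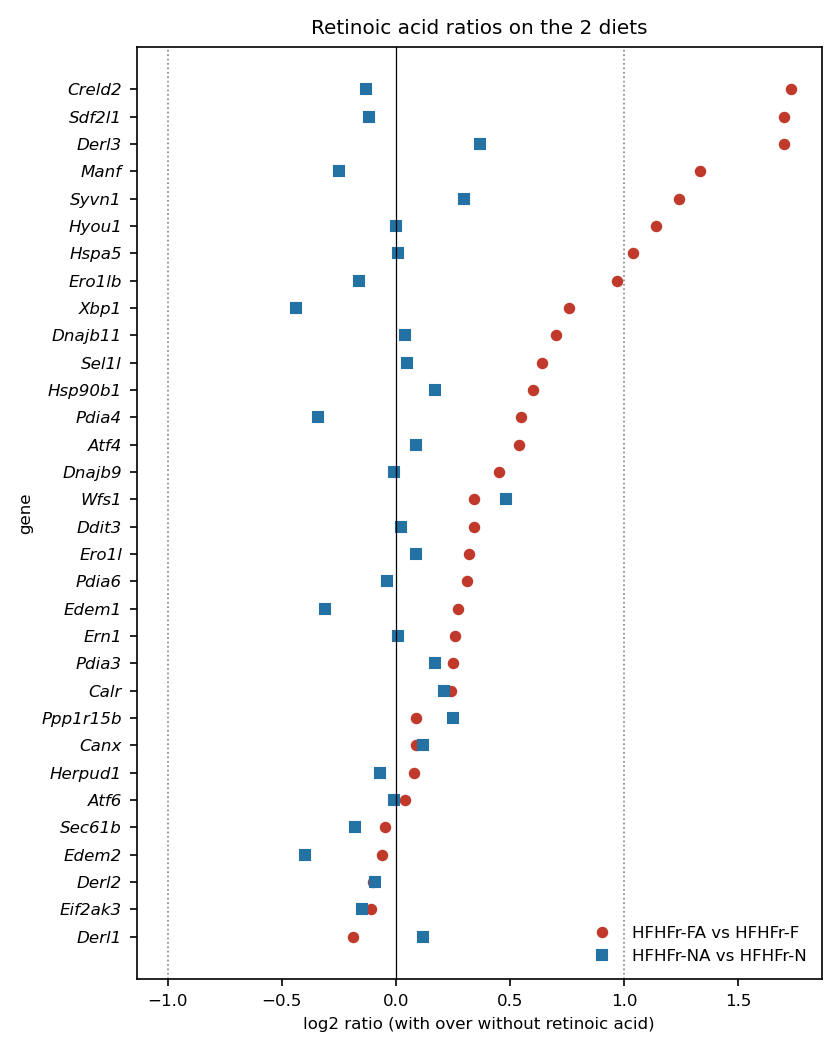
Log2 ratio of the pool with retinoic acid to the pool without it for each of the 32 genes, on the HFHFr diet (HFHFr-FA against HFHFr-F) and on normal food (HFHFr-NA against HFHFr-N); 1 array per pool. On the HFHFr diet the ratios run from -0.19 (Derl1) to 1.73 (Creld2), and on normal food from -0.44 (Xbp1) to 0.48 (Wfs1).

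On normal food none of the 32 counted genes was at least 2-fold higher or lower in HFHFr-NA than in HFHFr-N, where 1.51% of all genes were higher and 1.33% lower. Members above 0 numbered 16 of 32, with a median log2 ratio of 0.00 against 0.03 over all genes. Ppp1r15a, outside the counts, was lower by the 2-fold limit on normal food (log2 ratio -1.09) and had 0.66 on the HFHFr diet. The 7 genes at least 2-fold higher in HFHFr-FA than in HFHFr-F lay between -0.25 (Manf) and 0.37 (Derl3) on normal food. The difference of the log2 ratios, on the HFHFr diet minus on normal food, was a measure added after the values were seen. Its median was 0.39 over the 32 genes, against -0.01 over all 13227 genes, and it was at least 1 for 8 members and at or below -1 for none (2.62% and 2.99% of all genes). Those 8 were Creld2 (1.86), Sdf2l1 (1.82), Manf (1.59), Derl3 (1.32), Xbp1 (1.20), Hyou1 (1.14), Ero1lb (1.14) and Hspa5 (1.03). With 1 pool per group this difference has no test, and the HFHFr-FA slide enters it.

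The 20 weeks of HFHFr diet without retinoic acid went with lower levels of many members. Against control, 2 of 32 were at least 2-fold lower in HFHFr-F (Sdf2l1 and Xbp1, both at -1.04), where 3.23% of all genes were lower, and none was higher, where 5.43% of all were. Only 6 of 32 members had a log2 ratio above 0, 18.8% of them, against 42.0% of all genes. The members' median was -0.22 and that of all genes -0.08; with cyclic loess scaling they were -0.11 and 0.02, 14 members were above 0, and neither Sdf2l1 (-0.94) nor Xbp1 (-0.94) reached 2-fold. Of all genes past 2-fold in this comparison 62.7% were higher, and 74.5% with cyclic loess. At the other end Eif2ak3 had a log2 ratio of 0.89, Edem2 of 0.31 and Sec61b of 0.26. Some members below 0 were within the spotting error of 0.11, among them Canx and Pdia6 (both -0.07). Other lists, described below, had medians near or under that of the members in this comparison. They were -0.20 for other ER genes, -0.25 for secretory products and -0.36 for cytosolic and mitochondrial chaperones, while that of ATF4 targets was 0.10.

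The HFHFr-FA pool was close to or above control for most members. At least 2-fold higher than control was 1 gene, Derl3 (1.71), where 4.51% of all genes were higher, and none was lower, where 1.93% were. Members above 0 numbered 28 of 32 (87.5%), with a median of 0.23 against -0.06 over all genes. Creld2 (0.96), Syvn1 (0.79), Eif2ak3 (0.79) and Sdf2l1 (0.65) followed Derl3. Xbp1 (-0.28), Derl1 (-0.28) and Derl2 (-0.40) were below control. A second Derl2 probe gave -0.01, and the other Derl1 probes gave 0.24, -0.37 and -0.39. With the mean of all probes in place of the brightest, the members' median was 0.05.

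**Figure D3:**
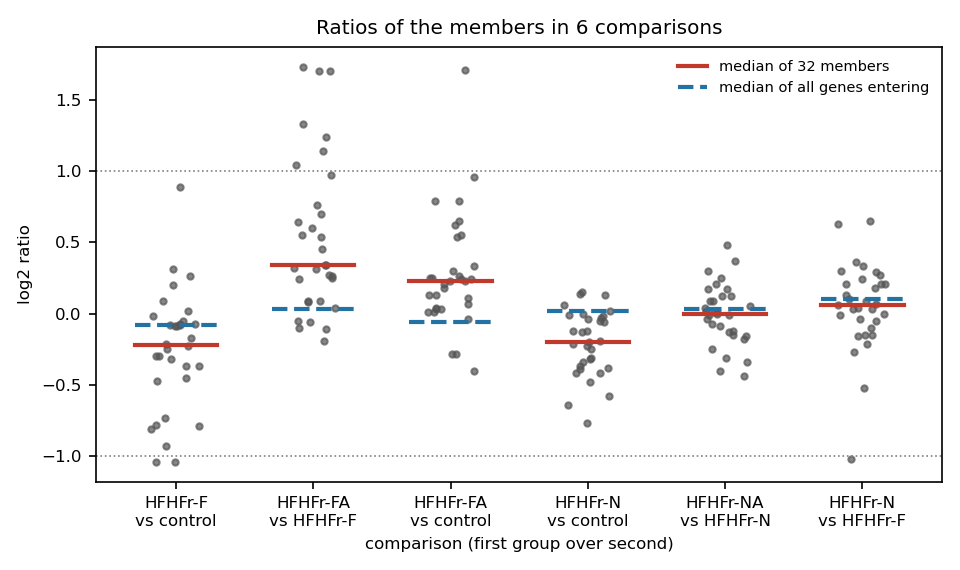
Log2 ratios of the 32 genes in each of the 6 comparisons of pools, with each gene as a point, the members' median and the median of all genes. The medians of the members lie at -0.22 for HFHFr-F against control, 0.34 for HFHFr-FA against HFHFr-F and 0.00 for HFHFr-NA against HFHFr-N.

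Returning to normal food for 4 weeks left most members a little below control. None of the 32 was at least 2-fold higher or lower in HFHFr-N than in control (1.14% and 0.825% of all genes). Members above 0 numbered 5 of 32, with a median of -0.20 against 0.02 over all genes. The lowest ratios were those of Creld2 (-0.77), Hspa5 (-0.64), Manf (-0.58) and Hyou1 (-0.48). Against HFHFr-F, HFHFr-N had no member at least 2-fold higher (2.13% of all genes) and 1 lower, Eif2ak3 (3.67% of all). Its highest members were Xbp1 (0.65) and Sdf2l1 (0.63), and the members' median was 0.06 against 0.10 over all genes. With median centring these medians were -0.04 and -0.01, so the sign of the members' median depends on the scaling. Of all genes past 2-fold here 36.7% were higher, with 25.5% under median centring and 24.0% under cyclic loess. The HFHFr-F array is shared by 3 of the comparisons above, so 1 array low in a gene lowers its ratio to control and raises both ratios over HFHFr-F.

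The order of the 5 pools gives the same values without a chosen pair. The highest level was in HFHFr-FA for 21 of 32 members (65.6%), against 18.7% of all genes, and the lowest in HFHFr-F for 15 (46.9%), against 31.5%. Both held for 9 members (28.1%), against 733 of 12965 genes (5.65%). The control pool was highest for 3 members, HFHFr-NA for 4 and HFHFr-F for 3. Leaving out the HFHFr-FA array, the other 4 arrays shared 1 slide: there 18 of 32 members were highest in control, against 24.7% of all genes, and 17 were lowest in HFHFr-F, against 44.2%. This order on 1 slide was counted after the values were seen. The count of members lowest in HFHFr-F was 8 with median centring or cyclic loess over the 5 arrays, and 10 and 9 over the 4. These counts stand without the share of all genes under the same scalings. The median of all genes in HFHFr-F against control moved too, from -0.08 to -0.02 with median centring and 0.02 with cyclic loess. Over the 5 pools the highest level was 1.14 to 3.62 times the lowest, with a median of 1.49, and at least 2-fold for 9 members (28.1%); over all genes the median was 1.48 and 16% were at least 2-fold.

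**Figure D4:**
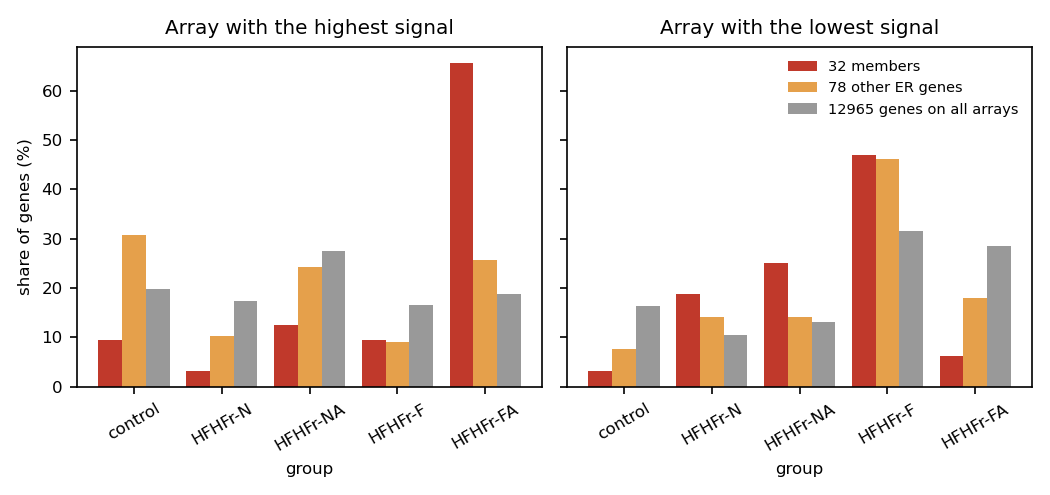
Share of genes with their highest and with their lowest level on each of the 5 arrays. Bars are the 32 members, 78 other ER genes (a list described below) and all 12965 genes well above background on every array. HFHFr-FA holds the highest level of 65.6% of members, 25.6% of the other ER genes and 18.7% of all genes. HFHFr-F holds the lowest level of 46.9%, 46.2% and 31.5%.

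Promoters with and without the element overlapped widely. In HFHFr-FA against HFHFr-F the 10 counted members with ERSE or ERSE-II had a median log2 ratio of 0.79, between 0.08 (Herpud1) and 1.73 (Creld2), and 4 of them were at least 2-fold higher. The 17 counted members with a promoter but no match had a median of 0.34, between -0.11 (Eif2ak3) and 1.70 (Sdf2l1), and 1 was at least 2-fold higher. Canx and Calr, which carry ERSE as shown above, had ratios of 0.09 and 0.24. On normal food the medians were 0.06 with and -0.01 without a match. Hyou1, Manf, Atf6, Derl1 and Ppp1r15b were not in the promoter table and stand in neither group.

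**Figure D5:**
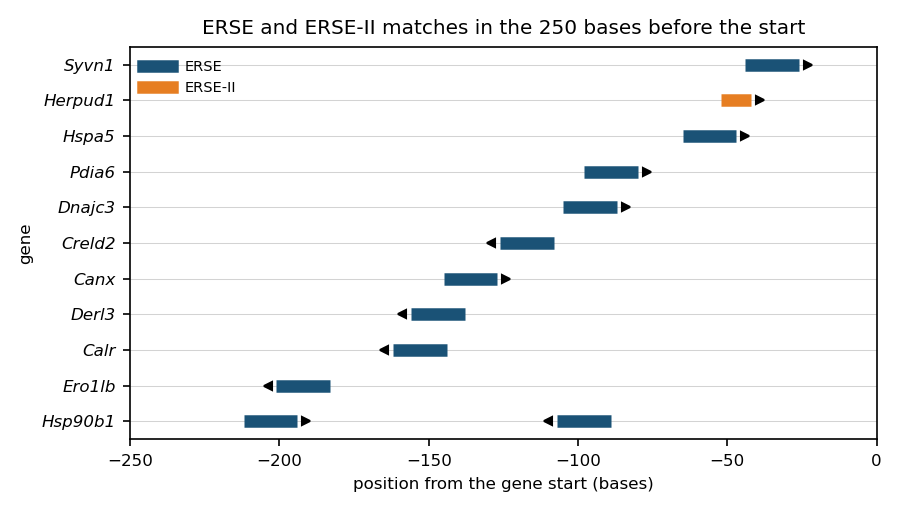
Position of each ERSE and ERSE-II match in the 250 bases before the start of the members that hold one. Rows are genes, bars are matches and arrowheads give the strand. The matches lie between -212 (Hsp90b1) and -26 (Syvn1).

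How far a second probe bears the values out differed between comparisons. For HFHFr-F against control, 20 of 21 other measured probes of the members had the sign of the brightest probe; for HFHFr-FA against HFHFr-F it was 11 of 20, and 4 lay more than 0.5 from it (of Derl1, Ero1lb, Pdia6 and Sel1l). For HFHFr-FA against control it was 8 of 20. None of the 7 genes at least 2-fold higher in HFHFr-FA than in HFHFr-F had a second usable probe: Creld2, Sdf2l1, Manf, Derl3 and Hspa5 have 1, and the other probe of Hyou1 was never above background and that of Syvn1 on 2 arrays only. A second Hsp90b1 probe gave -1.0 and 0.86 where the brightest gave -0.37 and 0.60 for HFHFr-F against control and HFHFr-FA against HFHFr-F.

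Other ER genes, from a list of 81 further folding, translocation and quality control genes of which 78 could be measured, differed less between these pools. In HFHFr-FA against HFHFr-F 51 were above 0 and the median was 0.13. At least 2-fold higher was 1 gene and none was lower (2.77% and 2.83% of all genes). The 1 gene was Pdia5, a disulfide isomerase, at 3.90 in HFHFr-F and 9.78 in HFHFr-FA (log2 ratio 1.33), and at 8.41 in control (-1.11 for HFHFr-F against control). Next to it P4hb, the main protein disulfide isomerase, had 0.21 and Sec61a1, the pore of the entry channel, 0.37, while Txndc5 had -0.43 and Dnajc10 -0.45. In HFHFr-F against control the list's median was -0.20. Pdia5 was at least 2-fold lower and Ppic, a prolyl isomerase, higher (1.02), where 3.23% and 5.43% of all genes were. Of the 78 genes 20 (25.6%) were highest in HFHFr-FA and 24 in control. Lowest in HFHFr-F were 36 (46.2%), a share close to the members' 46.9%. Over all genes 18.7% were highest in HFHFr-FA and 19.8% in control, and 31.5% were lowest in HFHFr-F.

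The targets of ATF4 and the amino acid response, a list of 43 genes with 38 measured, went both ways. In HFHFr-F against control 6 were at least 2-fold higher and 4 lower (5.43% and 3.23% of all genes), with a median of 0.10. The stress factor Atf3 was at 0.133 in control and 1.43 in HFHFr-F (log2 ratio 3.43), and Chac1, which breaks down glutathione, at 0.714 and 2.10 (1.56). Asns, the asparagine synthetase, was lower in HFHFr-F than in control (-1.17) and Trib3, a pseudokinase, had -0.32. In HFHFr-FA against HFHFr-F there were 2 higher genes and 3 lower ones (2.77% and 2.83% of all genes), and the median was 0.00. Fgf21, a hormone of the fasting response, was higher (2.04) and the lipoprotein receptor Vldlr lower (-1.70), while Atf3 had 0.04, Chac1 0.82, Trib3 0.19 and Asns -1.05. On normal food Asns was the 1 gene of the list at least 2-fold higher with retinoic acid, where 1.51% of all genes were. Its log2 ratio was 3.13, with 0.396 in HFHFr-N and 3.48 in HFHFr-NA.

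Chaperones outside the ER also differed between the pools on the HFHFr diet. Of 42 cytosolic and mitochondrial chaperones 41 were measured, and their median was -0.36 in HFHFr-F against control and 0.20 in HFHFr-FA against HFHFr-F. Hspb1 (1.37), a small heat shock protein, and Hsph1 (1.18), an HSP70 nucleotide exchange factor, were at least 2-fold higher in HFHFr-FA than in HFHFr-F. In that comparison 2.77% of all genes were higher. Hspa1a (1.42), the inducible cytosolic HSP70, was higher in HFHFr-F than in control, where 5.43% of all genes were. Of 25 measured secretory products of hepatocytes 2 were at least 2-fold higher in HFHFr-FA than in HFHFr-F, Fga (1.07) and Itih3 (1.03), and the median was 0.13, with -0.25 in HFHFr-F against control.

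The arrays were of whole liver, in which fewer cells of a type and less RNA per cell cannot be told apart. All 7 matched hepatocyte markers were measured on every array. Their summed level was 2506 in control, 1977 in HFHFr-F, 1997 in HFHFr-FA, 2363 in HFHFr-N and 2750 in HFHFr-NA. Most of it was Alb (1616 in control, 1428 in HFHFr-F and 1261 in HFHFr-FA), so the sum says little about the other markers. Tat was at 160, 66.9 and 132 in the same pools, and Cps1 at 162, 62.7 and 116. These were the 2 of the 7 at least 2-fold lower in HFHFr-F than in control, where 3.23% of all genes were lower. The medians of the 7 were -0.52 for HFHFr-F against control, where 1 was above 0, and 0.45 for HFHFr-FA against HFHFr-F, where 4 were above 0. Macrophage markers (11 genes, 5 at least 2-fold higher in HFHFr-F than in control) summed to 109 in control, 219 in HFHFr-F and 198 in HFHFr-FA. Over all genes 5.43% were higher in that comparison, and 2.83% were at least 2-fold lower in HFHFr-FA than in HFHFr-F. Stellate cell and fibroblast markers (10 genes, 5 higher) summed to 76.3, 117 and 115, most of it Dcn, and 3 of them were at least 2-fold lower in HFHFr-FA than in HFHFr-F: Col1a1 (3.64 to 1.11), Col3a1 (10.2 to 3.12) and Lum (6.76 to 2.59). Cholangiocyte markers (8 genes, 3 higher) summed to 9.11, 62.4 and 11.7, nearly all of it Spp1 (7.66, 60.4 and 10). Erythroid markers summed to 362, 552 and 229 in the same pools, and 3 of them were at least 2-fold lower in HFHFr-FA than in HFHFr-F. Plasma cells and pancreatic acinar cells, whose secretory machinery is rich in these chaperones, had few detected markers: Tnfrsf17, Irf4 and Prdm1 of the B and plasma cell list, and Cpa1, Cpb1, Pnlip, Prss2 and Ptf1a of the acinar list, were above background on no array, while Jchain of the first list and Ctrb1, Ctrl and Cel of the second were above it on all 5. The 11 matched B and plasma cell genes summed to 31.4 in control, 19.5 in HFHFr-F and 20.6 in HFHFr-FA, most of it Sdc1, which hepatocytes also express, and the 14 acinar genes to 0.862, 1.28 and 0.931. The part of these shifts in the members' values was not tested.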

How the data were processed

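Each of the 5 arrays holds Cy3-labelled RNA of 1 pool of 5 mice (Agilent Whole Mouse Genome 4x44K). Per the file headers, the authors deposited scanner tables of Feature Extraction 10.5.1.1 with a background-corrected signal intensity per spot, and flags (other) for outliers, saturation and background; probe positions are on mm9. Control spots and outlier spots (60 to 96 per array) were left out; none of the spots was saturated. Signals were divided by each array's 75th percentile (172.5 to 222.9) over 43379 non-control spots and taken to log2; 46.7% to 49.4% of spots were well above background. A gene entered a comparison if either array had its brightest probe well above background; all the members' ratios were measured on both. The authors' deposited value table holds a linear ratio: it was the processed signal divided by 1 constant per array (165.3 to 214.7), not centred and in the direction of the signal, with medians of 0.07 (control), 0.0738 (HFHFr-N), 0.0744 (HFHFr-NA), 0.0675 (HFHFr-F) and 0.0721 (HFHFr-FA).

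With 1 array per group there is no test; called means at least 2-fold. Alternatives were median centring, cyclic loess, normexp with offset 50 and quantile normalization, the value table, the mean of all probes, no detection filter, both arrays above background, and outlier spots kept. The precision is limited by the number of arrays, the spotting error and the choices of scaling and probe; the calculation was tested on simulated data. Genes were named by a rule: all members, at most 3 genes per list with the largest difference in HFHFr-FA against HFHFr-F and in HFHFr-F against control, and 9 further ER and ATF4 genes. Some cell type markers were named outside this rule, for making up most of a sum or for being detected or undetected. The members and lists (other ER genes, ATF4 targets, cytosolic and mitochondrial chaperones, secretory products, and markers of hepatocytes, B and plasma cells, acinar cells, macrophages, stellate cells, cholangiocytes and erythroid cells) were chosen with earlier results of these data known. The slide 1 order and the difference of the retinoic acid ratios were added after the data were seen. Promoters are RefSeq's (GRCm38.p6), a build other than that of the probes, and no position was carried between them. Tools were R 4.3.3 with limma 3.58.1 and Python 3.11.15.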

Additional observations from a re-analysis of the deposited data

Results flagged for a closer look

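Retinoic acid went with opposite signs on the HFHFr diet and on normal food for 8 of 32 members (25%), each by more than the spotting error, as for 21.2% of all 13227 genes measured in both, so the share is near the background; the difference was not tested, since each ratio is of 1 array to 1 array, and the HFHFr-FA slide cannot be told apart from the group. Creld2 had a log2 ratio of 1.73 in HFHFr-FA against HFHFr-F and -0.13 in HFHFr-NA against HFHFr-N. Sdf2l1 had 1.70 and -0.12. For Manf, a secreted stress factor, the ratios were 1.33 and -0.25. Ero1lb, the disulfide oxidase, had 0.97 and -0.16. Xbp1 had 0.76 on the HFHFr diet and -0.44 on normal food. The isomerase Pdia4 had 0.55 and -0.34, and the ERAD gene Edem1 0.27 and -0.31. Derl1 alone of the 8 ran the other way, with -0.19 on the HFHFr diet and 0.12 on normal food, but its 3 other probes gave 0.52, 0.08 and 0.06 on the HFHFr diet, so its sign rests on the brightest probe.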

How the results depend on the processing

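With 1 array per group no replicate could be left out, so the alternatives bear on scaling, background, probes and filters only; the cause of the moves below was not tested unless given. The 7 members at least 2-fold higher in HFHFr-FA than in HFHFr-F numbered 6 under median centring and under the mean of all probes. Members at least 2-fold lower in HFHFr-F than in control numbered 0 in place of 2 under median centring, cyclic loess and normexp with quantile normalization, and 1 was higher under cyclic loess (Eif2ak3, at 1.0). In HFHFr-FA against control 2 in place of 1 were higher under cyclic loess and normexp (Creld2 joined Derl3), and the median was 0.05 in place of 0.23 under the mean of all probes. Under that mean, which takes in an Eif2ak3 probe above background on no array, Eif2ak3 in HFHFr-N against HFHFr-F turned to 0.46 and 1 member (Eif2ak3) was lower in HFHFr-NA than in HFHFr-N; the 1 member lower in HFHFr-N than in HFHFr-F became 0 there and under normexp. Members lowest in HFHFr-F numbered 8 in place of 15 under median centring and cyclic loess, and 10 and 9 in place of 17 over the 4 arrays of slide 1. Members lowest in HFHFr-FA numbered 4 in place of 2 under median centring and 1 under normexp. A count was taken as kept within 1.5 times its value, and a median or a ratio within the spotting SD: by this, 172 summary values were kept and 16 moved, while 1400 single ratios were kept, 135 moved and 1 called ratio turned (Eif2ak3, above). Counted apart from that, 69 single ratios changed sign (27 under the mean of all probes, 18 under median centring, 17 under cyclic loess and 7 under normexp), 8 of them with both values beyond the spotting SD. The order over the arrays was not recomputed with no detection filter or with both arrays above background, which do not bear on genes measured on all 5. Spotting error limits ratios under about 0.10.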
